A study of Arabidopsis thaliana with 12 samples.

Results

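Transcripts of Arabidopsis thaliana seedlings after 8 min of treatment with H2O2 were compared with those after 2 min of the same treatment, to follow how the steady-state level of transcripts moved on within the first minutes of exposure to this reactive oxygen species (ROS). The comparison used 6 of the 12 RNA-Seq libraries of the experiment, 3 at 8 min and 3 at 2 min. Of the 20972 genes listed, the 19485 whose normalized count averaged 10 or more over the 12 libraries were included. A normalized count is the number of reads on a gene divided by 1 size factor per library. Genes without any reads in 1 or more of the libraries were not listed, so a transcript read at 8 min and not at all at 2 min was not analysed here.

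Seedlings of both groups were wild type (Col-0), 5 days old, and had been kept shaking in liquid 0.5x MS medium in continuous light. The 8 min group and the 2 min group had each received 1 mM H2O2, and about 100 to 150 seedlings were taken per time point, in an experiment done in 3 repeats. Seedlings given water were sampled as the 0 min group, and libraries of 4 min of H2O2 complete the series. With no water-treated samples at 2 or 8 min, time in H2O2 cannot be told apart from time since liquid was added to the flask. Whole seedlings were used, so a transcript that is lower may come from fewer cells of a type or from less RNA per cell, which cannot be told apart.

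H2O2 enters plant cells through aquaporins, is removed by catalases and peroxidases, and acts as a signal that raises cytosolic calcium and activates MAP kinase cascades. The genes known to answer such signals first in plants encode short-lived regulators, among them ethylene response factors (ERFs), zinc finger proteins of the ZAT family, WRKY factors, calmodulin-like proteins and enzymes of mRNA decay. Many of these genes are also induced by touch, wounding, light stress and pathogen elicitors.

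The 3 libraries at 8 min held between 16371777 and 26618274 reads on genes, and the 3 at 2 min between 13558388 and 19811487. Pairs of replicates correlated across genes with r between 0.9836 and 0.9880 at 8 min and between 0.9908 and 0.9912 at 2 min. All 5 shoot markers and all 6 root markers had values in every library, and none of these 11 markers passed the test. Of 4 floral organ markers, PI alone had values. The summed level of 4 seed storage transcripts was between 14742 and 71591 normalized counts at 8 min (median 23097) and between 28115 and 51446 at 2 min (median 35694), with replicate 2 highest at both times, and its part in the results below was not tested. The 9 common reference genes, including ACT2, UBQ10 and GAPC2, had log2 changes between -0.14 and 0.03.

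The steady-state level of 122 transcripts was higher at 8 min than at 2 min and that of 2 transcripts was lower (limma with the 12 libraries in 1 fit, Benjamini-Hochberg adjusted p under 0.05). These were 0.626% and 0.0103% of the 19485 genes tested. The gene lists below were chosen with earlier results of these data known. Their counts stand beside these shares, and no list was tested as a set. A log2 change is the difference of the means of log2(normalized count + 1), 8 min minus 2 min. The 122 transcripts had a median log2 change of 1.05, with a range of 0.38 to 3.76, and the fold change of their means had a median of 2.08. The median log2 change of all genes tested was -0.00, with quartiles at -0.08 and 0.09. Of the 122 transcripts, 64 rose by a log2 change of at least 1 and 58 by less. Among all genes tested, whether past the test or not, 0.534% had a log2 change of at least 1 and 0.0821% one of -1 or less. For all 122, each library at 8 min was above each library at 2 min, which held for 6.26% of all genes tested. The reverse, each library at 8 min below each at 2 min, held for 5.29% of all genes. The 122 were called on these same libraries, so their separation, also where given for single genes below, is no independent evidence. The transcripts that rose were of moderate abundance, with a median of 466 normalized counts at 8 min and 203 at 2 min.

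The number of transcripts that rose depended on single libraries, of which only 6 enter the comparison. It was 65 without 8 min replicate 1, 77 without 8 min replicate 2 and 120 without 8 min replicate 3. It was 88, 65 and 66 without 2 min replicates 1, 2 and 3. Of the 122 transcripts, 59 passed in each of the 12 fits that left out 1 library, and a gene given below with its test and no remark on these fits is among the 59. With the replicate number as a block, 140 transcripts were higher and 0 lower, and 116 of the 122 still passed.

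**Figure D1:**
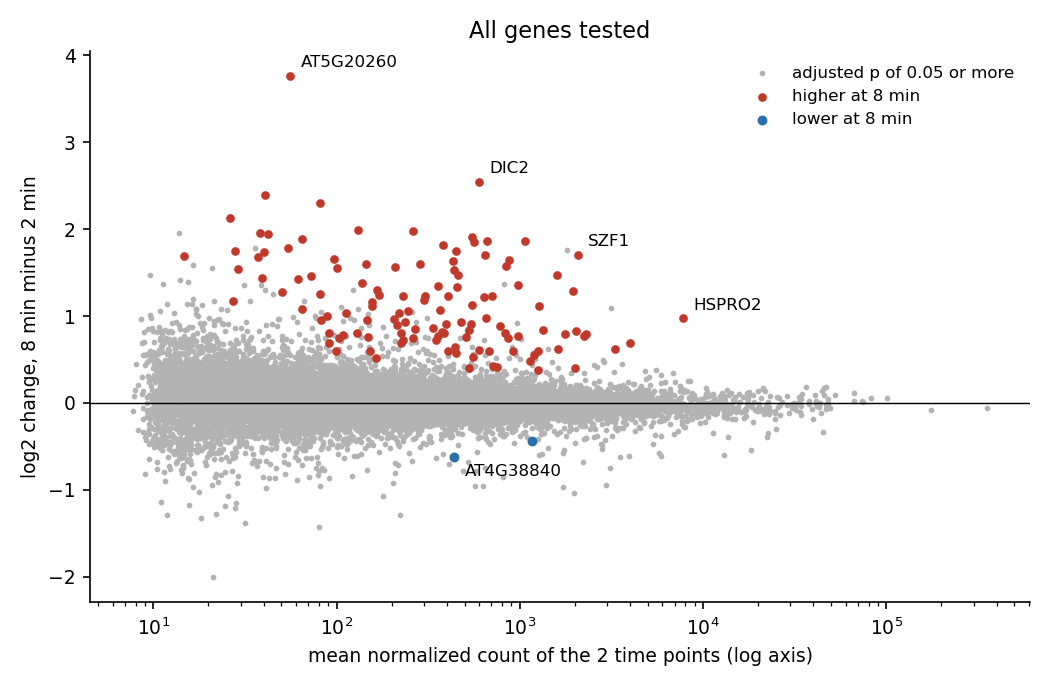
Log2 change (8 min minus 2 min) of each of the 19485 genes tested against its mean normalized count at the 2 time points (log axis). Each point is a gene, red for the 122 higher at 8 min, blue for the 2 lower at 8 min and grey for the rest. Most points lie close to 0, and the red points reach 3.76 for AT5G20260, while the blue ones lie at -0.62 and -0.43.

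The largest rise was that of AT5G20260, which encodes a member of the exostosin family of glycosyltransferases (chromosome 5, 6836781 to 6839609, TAIR10.1, reverse strand). It had 123, 90.5 and 99.0 normalized counts in the 3 libraries at 8 min, against 12.8, 5.14 and 4.35 in those at 2 min. The transcript was thus close to the lower end of detection at 2 min, with 11, 4 and 5 reads, and the lowest library at 8 min was still far above the highest at 2 min. The mean was 14-fold higher at 8 min, with a log2 change of 3.76 ± 0.32 (SE; limma adjusted p = 0.000236). A stretch of 82 bases of the gene overlaps DIN10 on the other strand, and DIN10 had a log2 change of -0.02.

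DIC2, the gene of a mitochondrial dicarboxylate carrier, followed (chromosome 4, 12686459 to 12687650). It had 1189, 1059 and 826 normalized counts at 8 min, against 250, 145 and 143 at 2 min. The groups were well separated, and the log2 change was 2.54 ± 0.22 (SE; limma adjusted p = 0.000236). Of the 9 mitochondrial carrier and stress genes tested, DIC2 was the one that passed by limma and edgeR, while DESeq2 also called AT2G22500 (log2 change 0.75, limma adjusted p = 0.0540). The median log2 change of these 9 was 0.15.

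AT1G50745, annotated as a plant mobile domain protein (chromosome 1, 18808866 to 18810504), had 74.6, 61.0 and 70.6 normalized counts at 8 min and 10.5, 16.7 and 10.4 at 2 min. All 3 libraries at 8 min were above those at 2 min, with a log2 change of 2.39 ± 0.28 (SE; limma adjusted p = 0.000974). Its neighbour AT1G50750, annotated as an aminotransferase-like, mobile domain protein, lies 98 bases away on the same strand. AT1G50750 had 76.8, 35.3 and 61.8 normalized counts at 8 min and 22.2, 16.7 and 12.2 at 2 min. This second gene also rose (log2 change 1.68, limma adjusted p = 0.0273), but not in 4 of the fits that left out 1 library, with an adjusted p of up to 0.152. AT1G50745 also overlaps AT1G50740 on the other strand over 170 bases, and AT1G50740 had a log2 change of 0.26. Reads on a transcript that runs through both neighbours could not be told apart from reads on 2 transcripts.

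Several of the other large rises were of genes with few annotated functions. AT3G10930, annotated as uncharacterized, had 262, 211 and 161 normalized counts at 8 min and 61.8, 42.4 and 52.2 at 2 min (log2 change 1.99, limma adjusted p = 0.00116). AT1G07135, a glycine-rich protein, had 1137, 1290 and 705 at 8 min and 321, 255 and 258 at 2 min (log2 change 1.87, limma adjusted p = 0.00104). RTFL12, which belongs to a family of small peptides that affect leaf and organ shape, had 74.6, 116 and 62.8 at 8 min and 32.7, 18 and 20.9 at 2 min. The groups did not overlap for any of these 3 genes. RTFL12 had a log2 change of 1.78 (limma adjusted p = 0.0115) and was lost without 2 min replicate 2, 2 min replicate 3 or 8 min replicate 2, with an adjusted p of up to 0.0761. AT5G44350, named as an ethylene-responsive nuclear protein-like gene, and AT1G74830, annotated as a putative myosin-binding protein, each had a log2 change of 1.74, and passed in 6 and 5 of those 12 fits. AT1G74830 was also not called with the replicate block (limma adjusted p = 0.0706).

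**Figure D2:**
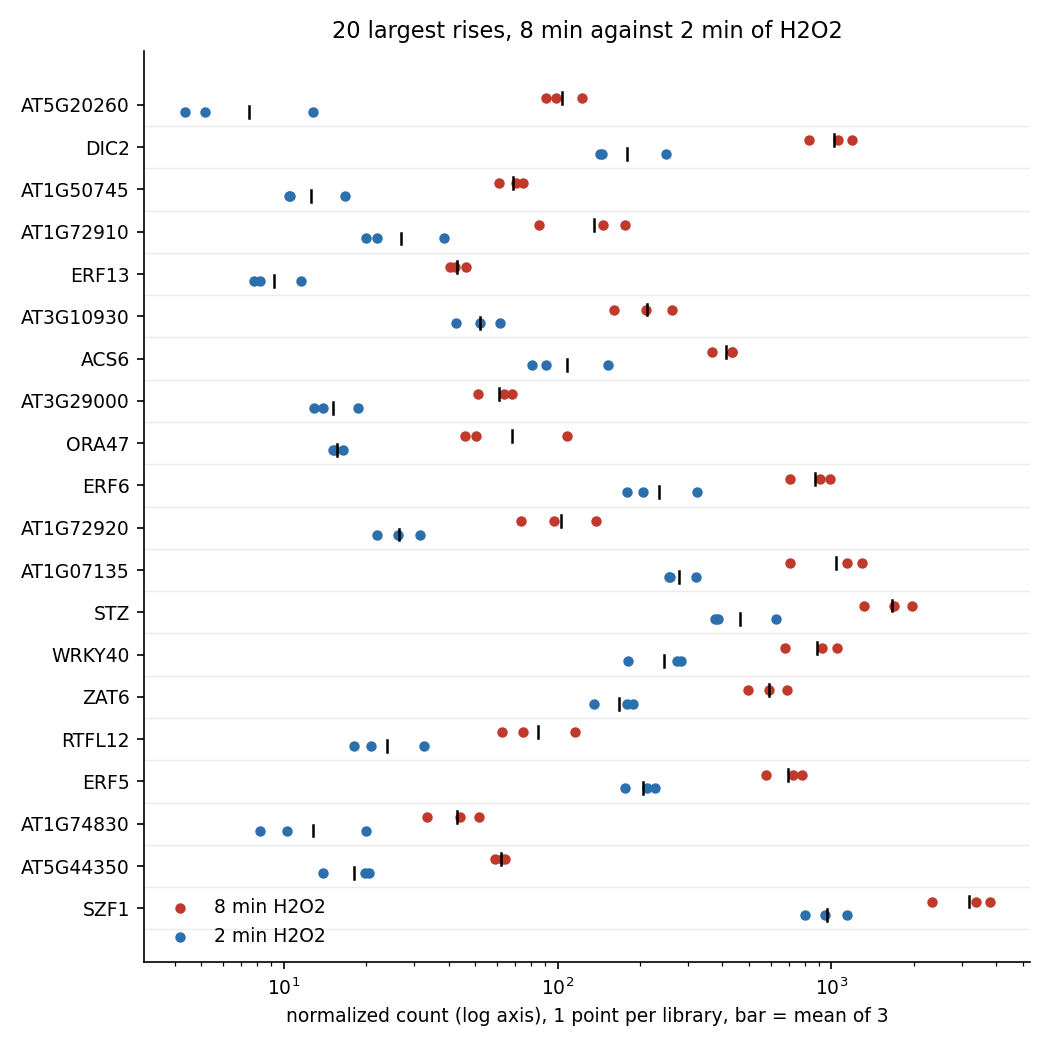
Normalized counts (log axis) of the 20 transcripts with the largest log2 rise, with a red point for each of the 3 libraries at 8 min, a blue point for each of the 3 at 2 min and a bar at each mean. In each row the red points lie to the right of all blue points, and the levels at 8 min run from 33.4 normalized counts for AT1G74830 to 3780 for SZF1.

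The 250 bases before the annotated start of these genes were read from the TAIR10.1 genome of RefSeq, to give the sequence next to which the rises were measured. They were searched on both strands for the W-box of WRKY factors (TTGACC or TTGACT), the CAMTA core (CGCGTT), the GCC-box of ERFs (GCCGCC), the DRE of DREB factors (ACCGAC) and the G-box (CACGTG). A W-box was present in 44.3% of the promoters of the 122 transcripts that rose and in 28.5% of 19383 promoters of all genes tested, and 12.3% and 6.03% held 2 or more. The CAMTA core was in 5.74% of the promoters of the 122 against 2.72% of all, the GCC-box in 5.74% against 1.97%, the DRE in 4.92% against 5.22% and the G-box in 5.74% against 7.56%. The shares are given as descriptions with no test, and a match of letters is not a binding site. The 3 promoters shown first belong to the genes with the largest, the next largest and the fourth largest rise. The window of AT1G50745 is not shown because 152 of its bases lie in the gene model of AT1G50750. In the window of DIC2, 12 bases lie in the gene model of AT4G24565. Capitals mark the matches to the 5 motifs. AT5G20260 (chr5:6839610-6839859, reverse strand) had none, DIC2 (chr4:12686209-12686458, forward strand) had a CAMTA core 139 and a W-box 123 bases before the start, and AT1G72910 (chr1:27435056-27435305, forward strand) had a W-box 46 bases before it.
AT5G20260: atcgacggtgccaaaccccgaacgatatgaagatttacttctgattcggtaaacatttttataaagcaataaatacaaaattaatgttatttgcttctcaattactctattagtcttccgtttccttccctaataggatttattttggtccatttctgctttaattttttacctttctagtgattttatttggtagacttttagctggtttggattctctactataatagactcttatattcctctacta
DIC2: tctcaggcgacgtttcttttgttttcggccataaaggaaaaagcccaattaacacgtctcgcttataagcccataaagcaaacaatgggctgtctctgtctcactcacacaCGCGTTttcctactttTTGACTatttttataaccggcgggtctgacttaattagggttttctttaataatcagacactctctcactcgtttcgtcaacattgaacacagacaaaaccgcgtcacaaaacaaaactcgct
AT1G72910: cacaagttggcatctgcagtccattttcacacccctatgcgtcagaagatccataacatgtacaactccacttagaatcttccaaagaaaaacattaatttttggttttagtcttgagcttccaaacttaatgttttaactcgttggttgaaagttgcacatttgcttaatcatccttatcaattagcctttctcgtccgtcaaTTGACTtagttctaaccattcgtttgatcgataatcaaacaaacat

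A further 3 promoters were chosen after their matches were seen, because they hold several matches each. SZF1 (chr3:20775970-20776219, forward strand) had 3 W-boxes, at 163, 57 and 50 bases before the start. TCH2 (chr5:14999620-14999869, reverse strand) had 4 matches to the CAMTA core, which form 2 overlapping pairs of opposite strands beginning 84 and 65 bases before the start. AT5G43620 (chr5:17522236-17522485, forward strand), of a family of pre-mRNA cleavage proteins, had a CAMTA core on the other strand 52 bases and a DRE 22 bases before the start.
SZF1: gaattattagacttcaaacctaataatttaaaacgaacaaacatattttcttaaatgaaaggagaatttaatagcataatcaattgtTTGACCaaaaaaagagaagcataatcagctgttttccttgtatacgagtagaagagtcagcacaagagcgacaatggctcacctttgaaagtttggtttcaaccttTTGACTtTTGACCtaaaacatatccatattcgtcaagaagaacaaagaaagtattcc
TCH2: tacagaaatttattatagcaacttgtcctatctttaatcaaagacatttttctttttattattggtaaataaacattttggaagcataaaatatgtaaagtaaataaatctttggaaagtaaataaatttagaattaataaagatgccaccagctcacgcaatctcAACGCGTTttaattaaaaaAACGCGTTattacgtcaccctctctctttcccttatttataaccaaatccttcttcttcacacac
AT5G43620: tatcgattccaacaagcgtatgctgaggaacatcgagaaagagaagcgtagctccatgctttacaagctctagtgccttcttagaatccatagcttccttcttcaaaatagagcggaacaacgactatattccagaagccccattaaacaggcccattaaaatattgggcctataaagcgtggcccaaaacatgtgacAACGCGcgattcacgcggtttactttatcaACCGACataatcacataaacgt

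AT5G43620 rose, with 155, 161 and 138 normalized counts at 8 min and 46.7, 46.3 and 60.8 at 2 min (log2 change 1.55 ± 0.17 SE, limma adjusted p = 0.000829). Its homologue AT1G66500, whose promoter also holds a CAMTA core and a DRE, had 230, 238 and 183 at 8 min and 86.3, 54.0 and 74.7 at 2 min (log2 change 1.60 ± 0.17 SE, limma adjusted p = 0.000585). The groups were far apart for both genes, which share 73 stretches of 50 bases, so that some reads could be counted on either. The promoter window of AT1G66500 also holds a G-box 75 bases before the start, and 119 of its bases lie in the gene model of AT1G66510.

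The cluster of genes for Toll-Interleukin-Resistance (TIR) domain proteins on chromosome 1 had 9 tested members. TIR domains are parts of immune receptors and of shorter proteins, and those of several plant proteins cleave NAD+. All 9 had a log2 change above 0, with a median of 0.72. By limma 3 of them rose, against 0.626% of all genes tested. AT1G72910 had 177, 146 and 85.3 normalized counts at 8 min and 38.5, 21.9 and 19.99 at 2 min. Its lowest library at 8 min was above its highest at 2 min, and its log2 change was 2.299 ± 0.37 (SE; limma adjusted p = 0.00845). It was lost without 2 min replicate 2, 2 min replicate 3 or 8 min replicate 1, with an adjusted p of up to 0.0630. AT1G72920 had 138, 97.0 and 73.5 at 8 min and 31.5, 21.9 and 26.1 at 2 min (log2 change 1.89, limma adjusted p = 0.00527). AT1G72940 had 319, 308 and 215 at 8 min and 144, 166 and 136 at 2 min (log2 change 0.90, limma adjusted p = 0.0311), and passed in 7 of the 12 fits. AT1G72900 had 533, 432 and 292 at 8 min and 222, 212 and 187 at 2 min, without overlap, and did not pass by limma (log2 change 0.98, adjusted p = 0.0583) but did by edgeR and DESeq2. These genes share sequence, so that reads may be split between them. Of 1727 stretches of 50 bases in AT1G72910, 301 also occur in AT1G72930 (TIR), which had a log2 change of 0.50, and 168 of 1168 in AT1G72920 also occur in AT1G72940.

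Calmodulin-like proteins are sensors that bind calcium through EF-hands. Of 18 genes tested in the calmodulin-like and touch list, 5 rose and 0 fell by limma, against 0.626% and 0.0103% of all genes. The median log2 change was 0.40. AT3G29000, an EF-hand protein, had 68.0, 51.4 and 63.7 normalized counts at 8 min and 18.7, 12.9 and 13.9 at 2 min, without overlap (log2 change 1.95 ± 0.26 SE, limma adjusted p = 0.00185). AT5G39670, another EF-hand protein, had 69.1, 66.8 and 77.5 at 8 min and 23.3, 28.3 and 35.6 at 2 min (log2 change 1.28, limma adjusted p = 0.00664). Most of this gene is overlapped on the other strand by a long non-coding RNA (514 of its 840 stretches of 50 bases). Whether their reads were counted apart is not known. CML23 had 197, 251 and 198 at 8 min and 110, 88.7 and 97.3 at 2 min (log2 change 1.12, limma adjusted p = 0.00147).

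TCH2, a calmodulin-like gene first described as induced by touch, was much more abundant, with 1115, 1123 and 796 normalized counts at 8 min and 641, 459 and 537 at 2 min. The groups were close but did not overlap, and the log2 change was 0.88 (limma adjusted p = 0.0273). It passed in 8 of the 12 fits, with an adjusted p of up to 0.181, and in the fit with the replicate block (limma adjusted p = 0.00293). The gene model overlaps AT5G37760 on the other strand over 723 bases, and whether reads there were counted apart is not known. CML37, also a calmodulin-like gene, was the weakest call of the group, at 23.04, 20.5 and 25.5 at 8 min and 5.83, 5.14 and 8.69 at 2 min, with a limma adjusted p of 0.0499, and it passed in 2 of the 12 fits. TCH4, a touch-induced gene of a cell wall xyloglucan enzyme, had 4267, 5881 and 2839 at 8 min and 2205, 2110 and 1584 at 2 min, without overlap, and did not pass by limma (log2 change 1.09, adjusted p = 0.0568) but did by edgeR and DESeq2. CML38 had 139, 198 and 98.1 at 8 min and 89.9, 52.7 and 56.5 at 2 min (limma adjusted p = 0.227) and was called by DESeq2 alone. None of the 7 calmodulin genes passed (median log2 change 0.04), nor any of the 6 CAMTA factors, which bind calmodulin and DNA (median -0.03), by limma, edgeR or DESeq2, and 0 of them had an unadjusted limma p under 0.05. Of 17 calcium pumps, calcium-dependent kinases and uniporter genes, AT5G66650, annotated as a calcium uniporter, was the one that rose (log2 change 0.76, limma adjusted p = 0.0120), and it was lost in 3 of the 12 fits. The median log2 change of these 17 was -0.00, with a range of -0.72 to 0.76. Each library at 8 min was below each at 2 min for 4 of the 17, against 5.29% of all genes tested. For 3 of the 17 each was above, against 6.26%. At an unadjusted limma p under 0.05 there were 4 below 0 and 3 above.

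The lists with the highest median change were 2 lists with zinc finger genes. Many C2H2 zinc finger proteins of the ZAT and AZF group carry an EAR repression motif. Of 8 tested genes of this group, 3 rose and 0 fell, against 0.626% and 0.0103% of all genes. Their median log2 change was 0.74. STZ (also ZAT10) had 1977, 1695 and 1313 normalized counts at 8 min and 630, 387 and 377 at 2 min. The lowest library at 8 min was above the highest at 2 min, with a log2 change of 1.86 ± 0.24 (SE; limma adjusted p = 0.00147). ZAT6 had 691, 593 and 494 at 8 min and 189, 179 and 136 at 2 min (log2 change 1.82, limma adjusted p = 0.000951). RHL41 (also ZAT12), widely used as a marker of the response to H2O2, had 741, 651 and 564 at 8 min and 267, 163 and 209 at 2 min (log2 change 1.63, limma adjusted p = 0.00178). ZAT11 had 84.5, 43.7 and 63.7 at 8 min and 23.3, 29.6 and 43.5 at 2 min and did not pass (limma adjusted p = 0.222).

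In the list of CCCH zinc fingers and CAF1 deadenylases, 3 of 6 rose, against 0.626% of all genes tested, and 0 fell. The median log2 change was 1.04. SZF1, a salt-inducible CCCH zinc finger gene, had 3780, 3388 and 2341 normalized counts at 8 min and 1137, 950 and 801 at 2 min. Its homologue CZF1 (also SZF2) had 3203, 2741 and 2394 at 8 min and 1215, 1057 and 1116 at 2 min. The groups were separated for both, with log2 changes of 1.70 ± 0.22 and 1.29 ± 0.13 (SE; limma adjusted p = 0.0015 and 0.00047). CAF1a, which encodes a deadenylase that shortens the poly(A) tail of mRNAs, had 1080, 1081 and 796 at 8 min and 356, 278 and 271 at 2 min (log2 change 1.70, limma adjusted p = 0.000951). CAF1b had 182, 164 and 154 at 8 min and 114, 90.0 and 84.3 at 2 min, without overlap, and did not pass by limma (adjusted p = 0.126) but did by DESeq2.

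ERFs bind the GCC-box and act in ethylene, jasmonate and stress responses. Of 19 ERF factors tested, 5 rose, against 0.626% of all genes tested, and 0 fell. The median log2 change was 0.32. ERF13 had 40.6, 46.2 and 42.2 normalized counts at 8 min and 8.17, 11.6 and 7.82 at 2 min (log2 change 2.13, limma adjusted p = 0.0120). It was lost in 4 of the 12 fits, with an adjusted p of up to 0.0744. ERF6 had 913, 986 and 705 at 8 min and 322, 204 and 179 at 2 min (log2 change 1.91, limma adjusted p = 0.000951). ERF5, its close homologue, had 726, 783 and 580 at 8 min and 228, 212 and 176 at 2 min (log2 change 1.75 ± 0.16 SE, limma adjusted p = 0.000238). ERF104, a substrate of the kinase MPK6, had 2513, 2683 and 1823 at 8 min and 1006, 774 and 737 at 2 min (log2 change 1.47, limma adjusted p = 0.00116). For none of the 4 did the groups overlap, and ERF104 was the most abundant at both times. ERF-1, the fifth, had a log2 change of 0.97. ERF2 and ERF4, with log2 changes of 0.87 and 0.83, were called by DESeq2 and missed the limma threshold (adjusted p = 0.0580 and 0.0571).

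Of 10 DREB factors, which belong to the same AP2/ERF superfamily, ORA47 and DREB2A rose and 0 fell (median log2 change 0.40). Over all genes tested, 0.626% rose. ORA47, an activator of jasmonate synthesis genes, had 50.5, 109 and 46.1 normalized counts at 8 min and 15.2, 15.4 and 16.5 at 2 min. Replicate 2 at 8 min was above the other libraries of that time, and the call (log2 change 1.94, limma adjusted p = 0.0141) was lost in 4 of the 12 fits, with an adjusted p of up to 0.0732. DREB2A, a factor of the drought and heat responses, had 1018, 908 and 773 at 8 min and 378, 397 and 374 at 2 min (log2 change 1.22, limma adjusted p = 0.00761).

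ACS6, which encodes an enzyme that makes the ethylene precursor ACC and is stabilised by MAP kinase phosphorylation, had 434, 435 and 368 normalized counts at 8 min and 153, 81.0 and 90.4 at 2 min. The libraries of the 2 times lay far apart, with a log2 change of 1.97 ± 0.24 (SE; limma adjusted p = 0.000974). It was the one of 11 ethylene synthesis genes that passed, and the median log2 change of the 11 was -0.05. MKK9, a MAP kinase kinase that acts upstream of MPK3 and MPK6, had 421, 560 and 310 at 8 min and 132, 150 and 130 at 2 min (log2 change 1.60 ± 0.19 SE, limma adjusted p = 0.000951). The other 10 genes of the MAP kinase list did not pass. MPK3 had 1913, 1847 and 1743 at 8 min and 1438, 1449 and 1286 at 2 min, without overlap, at a limma adjusted p of 0.0801, and passed by DESeq2.

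Of 30 WRKY factors, 3 rose, against 0.626% of all genes tested, and 0 fell. The median log2 change was 0.11. WRKY40, a repressor in defence and abscisic acid responses, had 927, 1049 and 678 normalized counts at 8 min and 284, 273 and 181 at 2 min (log2 change 1.85 ± 0.25 SE, limma adjusted p = 0.00198). WRKY33, needed for camalexin synthesis and resistance to necrotrophic fungi, had 2001, 1606 and 1639 at 8 min and 932, 801 and 692 at 2 min (log2 change 1.12, limma adjusted p = 0.000974). For neither gene did the groups overlap. WRKY70, which balances salicylic acid and jasmonate responses, had 160, 143 and 190 at 8 min and 119, 91.3 and 74.7 at 2 min. Its call was weak (limma adjusted p = 0.0421, and 0.0760 with the replicate block) and held in 1 of the 12 fits. WRKY53 had 453, 275 and 324 at 8 min and 202, 161 and 141 at 2 min, without overlap, and did not pass by limma (adjusted p = 0.0791) but did by DESeq2, as did WRKY18 (log2 change 0.75, limma adjusted p = 0.126).

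Among 12 NAC factors 3 rose, against 0.626% of all genes tested, with a list median of 0.13. NAC062, which is made as a membrane-bound precursor, had 786, 736 and 663 normalized counts at 8 min and 483, 471 and 471 at 2 min (log2 change 0.61 ± 0.09 SE, limma adjusted p = 0.00333). ATAF2 and NAC102 had log2 changes of 0.80 and 0.74, and passed in 3 and 6 of the 12 fits. Of 11 MYB factors, MYB77, which acts with auxin in lateral root growth, had 552, 593 and 410 at 8 min and 204, 186 and 214 at 2 min (log2 change 1.34, limma adjusted p = 0.00333). MYB51, a regulator of indole glucosinolate synthesis, had a log2 change of 0.57 and passed in 5 of the 12 fits, and DESeq2 alone called MYB73 (log2 change 0.63, limma adjusted p = 0.145). Of 18 heat shock factors, HSFB2A and HSFA4A had log2 changes of 0.80 and 0.74 and passed in 8 and 5 of the 12 fits. None of 20 heat shock proteins passed (median 0.10), nor any of 6 GRAS factors of the SCL13 and PAT1 group, by limma, edgeR or DESeq2. At an unadjusted limma p under 0.05 there were 2 and 1. For comparison, 767 of the 19485 genes tested were higher and 351 lower at such a p.

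Among 17 pattern recognition receptor genes, LYK5, a receptor of chitin, and SOBIR1, a partner kinase of receptor-like proteins, rose. SOBIR1 had 1265, 1130 and 937 normalized counts at 8 min and 757, 732 and 698 at 2 min (log2 change 0.60, limma adjusted p = 0.0273, passed in 7 of the 12 fits). LYK5 had 149, 128 and 135 at 8 min and 81.7, 68.1 and 90.4 at 2 min (log2 change 0.78, limma adjusted p = 0.0357, passed in 5 of the 12 fits). The median log2 change of the 17 receptors was -0.02. SOBIR1 overlaps RAP on the other strand over 478 bases, and RAP (AT2G31890) had a log2 change of -0.10. Of 19 PUB and ATL ubiquitin ligases, ATL2, a RING-type ligase, passed with 775, 738 and 609 at 8 min and 376, 419 and 336 at 2 min (log2 change 0.90, limma adjusted p = 0.00249). In 10 of these 19 genes each library at 8 min was above each at 2 min, against 6.26% of all genes tested. The list median was 0.34. PUB29, a plant U-box gene outside this list, rose (log2 change 1.00, limma adjusted p = 0.0205, passed in 7 of the 12 fits). AT3G02840, with a log2 change of 1.78, had 79.0, 46.9 and 44.1 at 8 min and 15.2, 14.1 and 16.5 at 2 min and did not pass by limma (adjusted p = 0.0568) but did by edgeR and DESeq2. PUB20 and ATL31, with log2 changes of 0.59 and 0.76, were called by DESeq2 alone (limma adjusted p = 0.141 and 0.0626).

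None of 48 genes of ROS scavenging enzymes passed in either direction, their median log2 change was -0.03, and 31 of the 48 lay below 0. The same 0 came from edgeR and DESeq2, and at an unadjusted limma p under 0.05 there were 2 above 0 and 1 below. Among all 19485 genes tested, 767 above 0 and 351 below 0 had such a p. APX1, the cytosolic ascorbate peroxidase, had 10735, 8822 and 10835 normalized counts at 8 min and 11892, 10276 and 11649 at 2 min (log2 change -0.16). CAT2, the main leaf catalase, had 29146, 15758 and 20809 at 8 min and 25031, 18740 and 22062 at 2 min (log2 change -0.04). The groups overlapped for both genes. The highest value of the list, 1.76 for the iron superoxide dismutase gene FSD1, rested on 1 library, since FSD1 had 2414, 2214 and 2335 at 8 min and 2413, 90.0 and 1449 at 2 min. None of 8 RBOH genes, which encode the oxidases that produce apoplastic superoxide, passed either, and RBOHD had a log2 change of 0.03. Likewise, 0 of 18 glutathione S-transferases passed, with a median of 0.05. For these 2 lists edgeR and DESeq2 also called 0, and 2 transferases below 0 had an unadjusted limma p under 0.05.

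Several other lists had no calls by limma. These were 10 JAZ repressors, 12 jasmonate synthesis genes, 12 genes of salicylic acid synthesis and signalling, 8 clade A PP2Cs of abscisic acid signalling, 10 Aux/IAA and GH3 genes, 8 type-A response regulators of cytokinin signalling, 12 clock genes, 24 photosynthesis genes and 4 VQ-motif partners of WRKY factors. Of these 100 genes, 13 had an unadjusted limma p under 0.05, all above 0. Over all 19485 genes tested, 767 above 0 and 351 below 0 had such a p. In these lists edgeR called 0 and DESeq2 1, AT5G26920 of the salicylic acid list. The list medians lay between -0.06 for the clock and 0.51 for the VQ-motif partners, of which 3 of 4 had such a p. AT1G17147 and AT3G56880, annotated as VQ motif-containing proteins but outside that list, rose. AT1G17147 had a log2 change of 1.43 (limma adjusted p = 0.0062). AT3G56880 had one of 0.84 (limma adjusted p = 0.0273) and passed in 7 of the 12 fits. Of 9 transcripts named in the study's text, AT1G69890 rose (log2 change 0.77, limma adjusted p = 0.0148, passed in 8 of the 12 fits), and that list was chosen on these samples, so it is no independent evidence of direction. DESeq2 also called WRKY53 higher and AT1G29670 lower in that list. AT1G29670 had 5236, 5081 and 3591 normalized counts at 8 min and 5984, 8230 and 6472 at 2 min (log2 change -0.58, limma adjusted p = 0.225).

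The cysteine-rich receptor-like kinases (CRKs), of which many respond to ROS and pathogen signals, were the list with the lowest median, at -0.40. Of 13 tested, 11 had a log2 change below 0. For 4 of the 13 each library at 8 min was below each at 2 min, against 5.29% of all genes tested. None of the 13 passed by limma, edgeR or DESeq2, and at an unadjusted limma p under 0.05 there were 5 below 0 and 1 above. Of the 19485 genes tested, such a p was reached by 351 below 0 and 767 above 0. CRK15 had 21.9, 15.4 and 14.7 normalized counts at 8 min and 36.2, 46.3 and 35.6 at 2 min, with a log2 change of -1.15 and a limma adjusted p of 0.211.

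**Figure D3:**
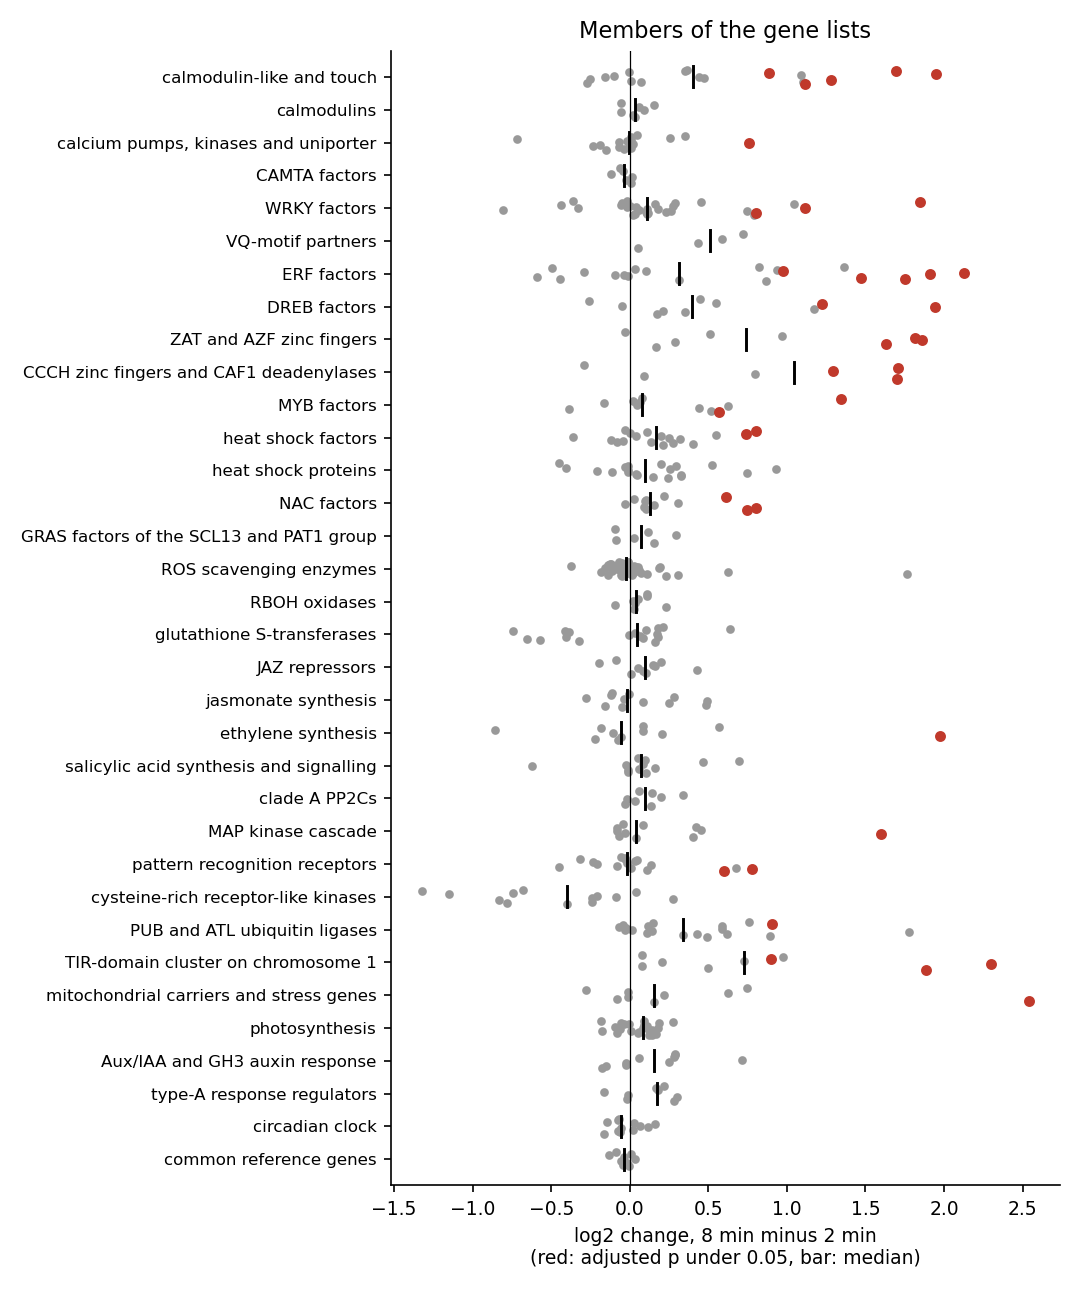
Log2 change (8 min minus 2 min) of each tested member of 34 gene lists. Each point is a gene, red where the limma adjusted p was under 0.05, and the black bar is the median of the list, which was highest for the CCCH zinc fingers and CAF1 deadenylases (1.04) and lowest for the cysteine-rich receptor-like kinases (-0.40).

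The 2 transcripts that were lower at 8 min were AT4G38840 and AT3G23450. AT4G38840, a SAUR-like gene of a family that responds quickly to auxin, had 351, 324 and 360 normalized counts at 8 min, against 499, 496 and 607 at 2 min. AT3G23450, annotated as uncharacterized, had 1108, 936 and 926 at 8 min and 1303, 1383 and 1313 at 2 min. The groups did not overlap for either gene, and the levels fell by 0.62 and 0.43 on the log2 scale (limma adjusted p = 0.0372 and 0.0359). In the water-treated libraries AT4G38840 had 353, 493 and 350 normalized counts and AT3G23450 had 916, 942 and 857. With the replicate block both missed the threshold (limma adjusted p = 0.0590 and 0.0597), and they passed in 4 and 5 of the 12 fits that left out 1 library, with an adjusted p of up to 0.206 and 0.217. At an unadjusted p under 0.05, 351 genes were lower and 767 higher.

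The libraries of 4 min show how far the 122 rises had come in between. Both the rise and its share at 4 min were measured against the same 2 min libraries, so they are not independent. The mean at 4 min lay between those of 2 and 8 min for 118 of the 122 transcripts. It was at or above the 8 min mean for AT1G72920, AT2G28400 and AT1G44050, and below the 2 min mean for LYK5. The median share of the log2 rise present at 4 min was 51.4%, with quartiles at 35.3% and 68.3%. The median log2 change of 0 min against 2 min was -0.18 for the 122 and 0.00 for all genes tested.

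Transcripts differed in the share of their rise that was present at 4 min. For 20 of the 122 it was at least 75%, among them CML23 (99.3%), CAF1a (95.9%), AT4G27280 (92.4%), an EF-hand gene, ERF104 (87.9%), TCH2 (87.4%) and STZ (83.2%). The means of STZ at 0, 2, 4 and 8 min were 210.5, 465, 1382 and 1662 normalized counts, and those of CAF1a were 234, 302, 959 and 985. For 13 transcripts it was at most 25%, among them LYK5 (-7.9%), AT1G14200 (4.6%), a RING-type gene, NAC062 (14.05%), AT1G50745 (18.21%), UGT73B5 (18.3%), a glucosyltransferase gene, ATAF2 (20.2%) and SOBIR1 (22.1%). The means of NAC062 at 0, 2, 4 and 8 min were 438, 475, 505 and 728 normalized counts, and those of AT1G50745 were 10.099, 12.5, 17.2 and 68.7. The shares rested in part on 1 library, since 4 min replicate 1 was the highest of its time for 94 of the 122 transcripts. Without it, the median share was 41.5%, and 8 transcripts reached 75% and 24 lay at 25% or less. CAF1a then had 82.4%, CML23 88.9% and STZ 67.3%, while NAC062 had 10.2% and AT1G50745 11.6%. Like STZ, ERF104 (74.2%) and TCH2 (69.2%) then lay under 75%, and UGT73B5 (25.2%) and SOBIR1 (26.1%) lay above 25%. AT4G27280 (75.4%), LYK5 (4.8%), AT1G14200 (-6.0%) and ATAF2 (22.4%) stayed within their limits. The order of single transcripts was not tested.

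Replicates also differed together within the 2 times compared. Of the 122 transcripts, 89 were lowest in replicate 3 among the 8 min libraries, and 79 were highest in replicate 1 among the 2 min libraries. The part of the repeat of the experiment in these levels was not tested, while the fit with the replicate block, given above, has the repeat as a term.

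**Figure D4:**
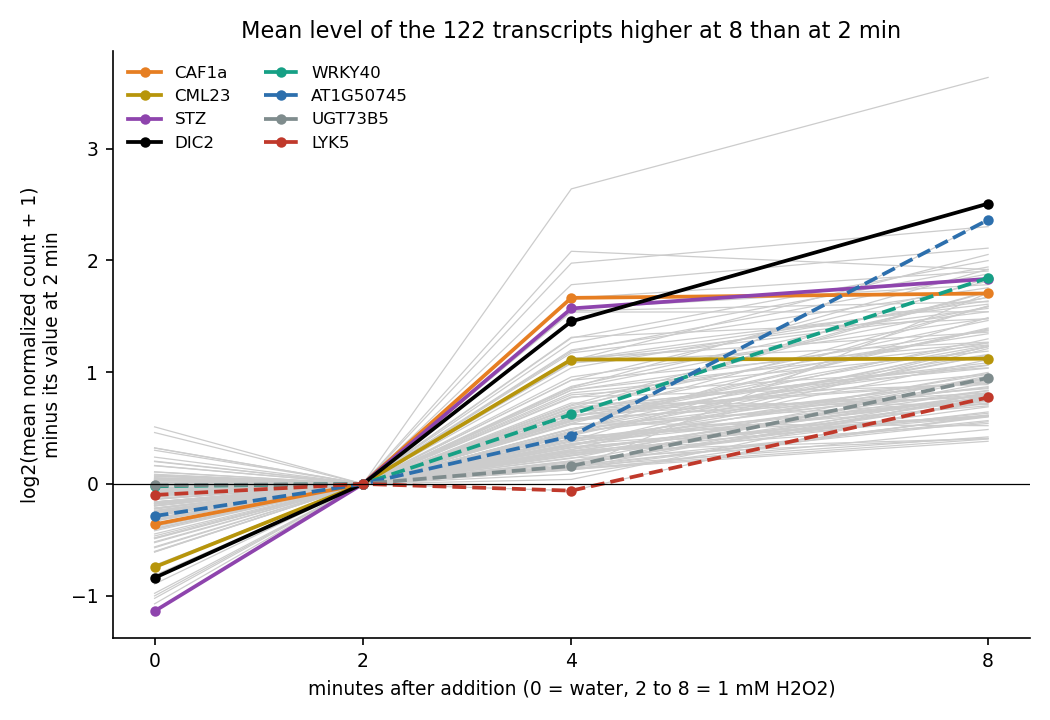
Mean level of each of the 122 transcripts higher at 8 min, as log2(mean normalized count + 1) minus its value at 2 min, for water (0 min) and for 2, 4 and 8 min after 1 mM H2O2 was added. Grey lines are single transcripts, solid coloured lines name examples with at least 50% of the rise present at 4 min (CAF1a, CML23, STZ, DIC2), and dashed lines name examples with less (WRKY40, AT1G50745, UGT73B5, LYK5). CAF1a and CML23 are level between 4 and 8 min, while AT1G50745 and LYK5 rise mainly after 4 min. With 4 min replicate 1 left out, the share of DIC2 was 49.3%.

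The genes that rose were short and had few exons. Of the 122 genes, 76 (62.3%) had 1 exon in their longest transcript, and 1 (0.820%) had more than 5. Among the 19384 genes tested with a gene model, 15.3% had 1 exon and 41.5% had more than 5. Read the other way, 2.56% of the 2966 genes with 1 exon rose, 0.537% of the 8376 genes with 2 to 5 exons and 0.0124% of the 8042 genes with more than 5. The median transcript length was 1444 bases for the 122 and 1747 bases for all genes tested, and the median GC content was 40.0% and 41.3%. Their overall abundance was similar, with a median of 315 and 289 normalized counts over the 12 libraries. STZ, ERF6, DIC2 and MKK9 each have 1 exon. Over all genes of the 1-exon class the median log2 change was 0.03, and over genes with more than 5 exons it was -0.02.

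**Figure D5:**
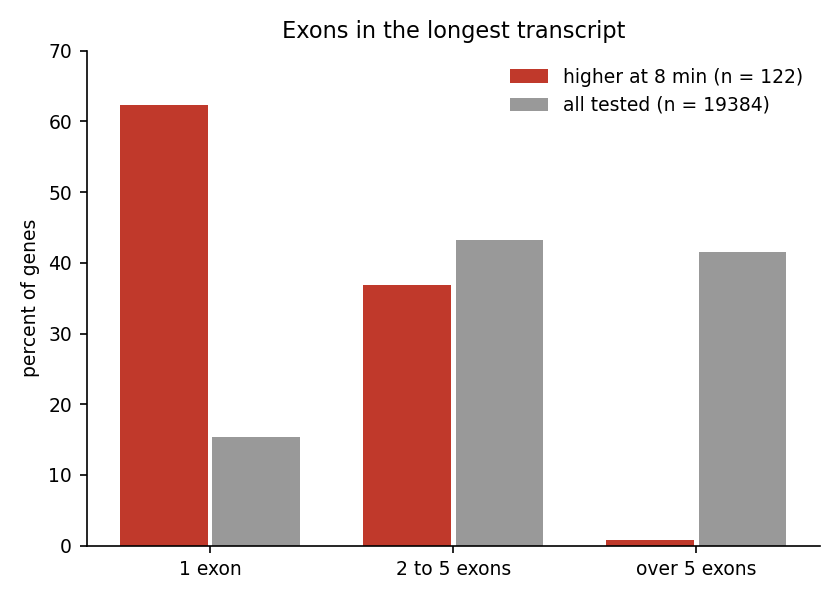
Percent of genes with 1, 2 to 5 or over 5 exons in the longest annotated transcript, in red for the 122 genes higher at 8 min and in grey for the 19384 genes tested with a gene model. The red bar is 62.3% for 1 exon and 0.820% for over 5 exons, and the grey bars are 15.3% and 41.5%.

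Some of the genes that rose lie close to each other on a chromosome. Genes that did not pass may lie between them, and how often tested genes lie as close was not counted. Besides AT1G50745 with AT1G50750 and the 3 TIR-domain genes, 4 pairs lay 1155 to 7796 bases apart. ERF6 and ERF-1 are 5041 bases apart on opposite strands of chromosome 4, with log2 changes of 1.91 and 0.97. MKK9 and NUDT21, a nudix hydrolase gene, are 4908 bases apart on chromosome 1, with log2 changes of 1.60 and 1.47. AT1G32920 and AT1G32928 lie 1155 bases apart, with log2 changes of 0.77 and 0.93, and each passed in 8 of the 12 fits. AT5G66650 and AT5G66675 lie 7796 bases apart, with log2 changes of 0.76 and 0.40, and AT5G66675 passed in 2 of the 12 fits and missed the threshold with the replicate block (limma adjusted p = 0.0892).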

How the data were processed

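Single-end RNA-Seq reads of 12 seedling libraries were aligned to TAIR10 by STAR 2.4.0.1, with FastQC 0.11.7 and DESeq2 1.20.0 also named in the submitters' processing notes. The libraries were made with a stranded mRNA kit, but the counting program and its strand setting are not given in the sources used here. The deposited values are a signal, for which the authors scaled each library's read counts with a single size factor. Dividing by the step of each library gave whole reads, within 0.001 of a read, for 100.0% of the values.

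Values were taken as log2(normalized count + 1) and tested with limma 3.58.1 with a trend in 1 fit to the 12 libraries, contrast 8 min minus 2 min, for genes with a mean of at least 10, and p-values were adjusted over all 19485 genes. Fold changes of low genes are understated on this scale. edgeR 4.0.16 and DESeq2 1.42.0 on recovered reads, other pseudocounts (0.1 and 5), filters (none, a mean of 50), quantile normalization, a replicate block, a GC correction and leaving out each library were alternatives. Scripts were tested on simulated counts.

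Same-numbered libraries deviated together (r = 0.216, 0.247 and 0.255, against -0.232 to -0.019 for other pairs), so the numbers were taken to pair the samples. The main fit has no term for these pairs, and the fit with the replicate block is given as an alternative. The experiment was done in 3 repeats, and the sources do not say whether these were separate cultures. The p-values measure the spread between these samples only. The floor was set at 3 reads, and it was not needed for a named fold change. Gene models of TAIR10.1 covered 20858 of the 20972 genes.

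Named were the 20 largest rises and up to 10 falls past the threshold and alike in all 3 pairs, and up to 4 members per gene list past the threshold. Further genes were chosen after their values were seen. Members and lists were chosen with earlier results of these data known. Leaving out 4 min replicate 1 from the shares at 4 min was added after the data were seen.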

Additional observations from a re-analysis of the deposited data

How the results depend on the processing

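The number of transcripts higher at 8 min was 122 and that of lower ones 2. The number of higher ones stayed within 1.5 times of 122, between 98 and 164, over the other pseudocounts, filters, normalization and tests, with the replicate block, with the block and a GC correction, and in a separate fit to the 6 libraries. It was 64 at an adjusted p under 0.01 and 64 with a log2 change of at least 1, by construction of the stricter rule, and lay between 65 and 125 when 1 of the 12 libraries was left out, with the lowest counts without 8 min replicate 1 (65), 2 min replicate 2 (65), 2 min replicate 3 (66) and 8 min replicate 2 (77). The number of lower ones was 8 by the DESeq2 Wald test, 0 with the replicate block, 1 with the block and GC correction, 6 in the separate fit with the block, 0 at an adjusted p under 0.01 and 0 with a log2 change of at least 1, and lay between 0 and 8 when 1 library was left out (8 without 8 min replicate 1). Of the 122, edgeR called 120, DESeq2 119 and the separate fit 94. The replicate block ended the call of 8 of the named genes, which were WRKY70, AT1G74830, AT5G28610, AT5G51390, AT3G09020, AT5G66675 and both lower ones, and of no other. The RHD2 log2 change (RBOHC), never called, was 0.23, and lay between -0.0913 (without 8 min replicate 3) and 0.523 (without 8 min replicate 2) when 1 library was left out. Where moves have no stated construction, the cause was not tested. With 3 libraries per time, and counting error added for transcripts of few reads, small changes and changes of rare transcripts were the least certain. Dropping 1 library leaves 2 at that time.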

Other observations

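Among the 122 transcripts that were higher at 8 min than at 2 min were groups of related genes outside the lists described, and these were picked after their values were seen, so they are given as values only. Of the purine permeases, which move purines and cytokinins across membranes, PUP18 had 2597, 2964 and 2218 normalized counts at 8 min and 1553, 1414 and 1384 at 2 min (log2 change 0.83, limma adjusted p = 0.000951). PUP14 and PUP7 rose by log2 changes of 0.62 and 0.69, and passed in 7 and 9 of the 12 fits that left out 1 library. Of the nudix hydrolases, which split nucleoside diphosphate derivatives, NUDT21 had 724, 755 and 548 at 8 min and 243, 233 and 249 at 2 min (log2 change 1.47, limma adjusted p = 0.000238). NUDT4 and NUDT7 had log2 changes of 1.07 and 0.41, and passed in 9 and 4 of the 12 fits. The groups did not overlap for PUP18, PUP14, PUP7, NUDT21, NUDT4 or NUDT7. RDUF1, a RING-type ubiquitin ligase gene of the abscisic acid response, had 1067, 1097 and 823 at 8 min and 435, 426 and 398 at 2 min (log2 change 1.23, limma adjusted p = 0.000527), and its homologue RDUF2 had 536, 535 and 471 at 8 min and 287, 251 and 284 at 2 min (log2 change 0.91, limma adjusted p = 0.00135).

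HSPRO2, related to a nematode resistance gene of sugar beet, was the most abundant transcript that rose, with 11117, 11398 and 8269 normalized counts at 8 min and 5711, 5341 and 4541 at 2 min (log2 change 0.97, limma adjusted p = 0.00679). It missed the threshold in the fit without 2 min replicate 3 (adjusted p = 0.0565). BAP1, a membrane-associated inhibitor of cell death, had 241, 239 and 228 at 8 min and 127, 73.3 and 92.1 at 2 min (log2 change 1.305, limma adjusted p = 0.0066). TET8, a tetraspanin of extracellular vesicles, had 3104, 2844 and 2491 at 8 min and 1744, 1569 and 1638 at 2 min (log2 change 0.76, limma adjusted p = 0.00147). SERAT2;1, a serine acetyltransferase of cysteine synthesis, had 741, 617 and 668 at 8 min and 414, 401 and 320 at 2 min (log2 change 0.84, limma adjusted p = 0.00298). The leucine zipper genes BZIP53 and bZIP1, both known from the response to low energy, rose by log2 changes of 0.62 and 0.56. AT2G30020, a PP2C-type phosphatase, had 382, 293 and 300 at 8 min and 161, 125 and 128 at 2 min (log2 change 1.23, limma adjusted p = 0.000911), while none of the 8 clade A PP2Cs passed. AT3G46600, a GRAS factor outside the list tested, had 2294, 2410 and 2009 at 8 min and 1356, 1288 and 1213 at 2 min (log2 change 0.80, limma adjusted p = 0.0015).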
